A study of Homo sapiens with 26 samples.

Results

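The genes described here are 9 intestinal identity factors and markers: the transcription factors CDX1, CDX2, HNF4A, GATA6, KLF5 and SOX9, the microvillus protein VIL1, the adhesion protein CDH17 and the receptor EPHB2. They were chosen by name, and all 9 were found among the 58039 genes of a table of read counts. Expression was measured by RNA sequencing in 26 libraries of HCT116, a human colon carcinoma line, and of knockout sublines made from it with CRISPR. The kinases CDK8 and CDK19, removed singly or together in those sublines, are alternative kinase subunits of Mediator, the complex that links enhancers to RNA polymerase II. Of the 9 genes, 6 had enough reads to be tested, and CDX1, VIL1 and CDH17 did not.

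In the adult intestine, CDX1 and CDX2 set the regional identity of the epithelium and switch on intestinal genes together with HNF4A, GATA factors and KLF5. SOX9 and EPHB2 are high in the crypt base, where Wnt signalling keeps stem and progenitor cells, while VIL1 and CDH17 mark the epithelium as it forms its brush border and lateral contacts. Colon carcinoma lines keep these programmes to different degrees.

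The groups were CDK8KO sublines C1 and C2, CDK19KO sublines C1 and C2, and sublines lacking both kinases (DKO), written DKO-C1 and DKO-C2. They also included DKO-C1 cells given JQ1 (DKO-C1+JQ1), control cells given JQ1 (control+JQ1), and control cells. JQ1 is a bromodomain inhibitor, a compound that blocks the reading of acetylated chromatin. Each group had 3 libraries except DKO-C1+JQ1, which had 2. The control cells are labelled HCT116 control cells, and all groups were grown in the same serum-containing medium. Each knockout genotype rests on 2 sublines, so a difference between sublines can be as large as one between genotypes, and JQ1 was given to 1 DKO subline alone. Neither the dose and time of JQ1 nor the edited sites were found in the sources used here. The 3 DKO-C2 columns carry a clone number that no sample title has and were assigned by elimination, so every DKO-C2 value rests on that assignment, and 1 of the DKO-C1+JQ1 columns was matched to its group only.

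The promoters of HNF4A, GATA6 and EPHB2 are shown because these 3 genes changed with JQ1 in both backgrounds, as described further on. RefSeq promoter windows (GRCh38.p14), which run from upstream of a start site to just past it, were taken for 5 of the 9 genes, and HNF4A had a window at each of its 2 main promoters. The upstream one, P2, lies at chr20:44355449-44355748 on the plus strand, and the downstream one, P1, at chr20:44400989-44401288 on the plus strand. The GATA6 window is chr18:22169339-22169638 on the plus strand, and the EPHB2 window is chr1:22710589-22710888 on the plus strand. Capitals mark matches to any of 7 short motifs on either strand.
HNF4A P2: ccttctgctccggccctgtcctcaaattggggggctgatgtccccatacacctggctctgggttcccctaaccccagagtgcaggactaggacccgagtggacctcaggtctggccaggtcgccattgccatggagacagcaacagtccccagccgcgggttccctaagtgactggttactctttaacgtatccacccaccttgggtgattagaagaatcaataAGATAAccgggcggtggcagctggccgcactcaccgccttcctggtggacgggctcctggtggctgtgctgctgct
HNF4A P1: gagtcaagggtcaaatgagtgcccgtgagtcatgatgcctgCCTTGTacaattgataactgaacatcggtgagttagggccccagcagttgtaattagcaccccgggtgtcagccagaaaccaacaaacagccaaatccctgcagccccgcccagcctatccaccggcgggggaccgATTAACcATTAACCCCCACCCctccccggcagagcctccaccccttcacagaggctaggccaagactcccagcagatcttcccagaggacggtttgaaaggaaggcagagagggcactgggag
GATA6: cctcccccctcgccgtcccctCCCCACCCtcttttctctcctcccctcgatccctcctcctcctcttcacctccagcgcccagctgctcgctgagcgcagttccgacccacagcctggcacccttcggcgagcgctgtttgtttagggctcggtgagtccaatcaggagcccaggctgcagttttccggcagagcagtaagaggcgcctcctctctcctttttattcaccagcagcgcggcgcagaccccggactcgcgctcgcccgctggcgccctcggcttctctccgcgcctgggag
EPHB2: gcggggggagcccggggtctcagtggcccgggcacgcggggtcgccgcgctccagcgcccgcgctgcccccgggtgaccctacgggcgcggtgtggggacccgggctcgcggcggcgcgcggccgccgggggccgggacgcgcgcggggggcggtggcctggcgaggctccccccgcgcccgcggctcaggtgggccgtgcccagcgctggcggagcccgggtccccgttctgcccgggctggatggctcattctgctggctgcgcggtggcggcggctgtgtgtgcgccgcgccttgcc

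The motifs searched were TTTATNG for CDX, CAAAGT for HNF4, GTTAAT for HNF1, AGATAA for GATA, CCNCACCC for KLF, ACAANG for SOX and CTTTGA for TCF. The HNF4, SOX and TCF letters can overlap one another. HNF4A P2 held 1 match, to the GATA motif at position -26 from the start site, and 10.3% of the 35116 RefSeq promoter windows hold that motif. HNF4A P1 held HNF1 matches on the minus strand at positions -73 and -66, a KLF match at -60 and a SOX match on the minus strand at -209. The HNF1 motif is in 6.88% of all windows, the KLF motif in 18.3% and the SOX motif in 35.5%. GATA6 held a KLF match at -229. The EPHB2 window, with a GC content of 83.0%, held none of the 7 motifs, which are in 9.73% (CDX), 11.9% (HNF4) and 12.9% (TCF) of all windows for those not yet named. These matches describe letters in a window, and the gene counts do not separate P1 from P2 transcripts of HNF4A.

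The libraries held 17700864 to 19093094 gene counts, and 3 counts, the limit that a count of 0 allows, corresponded to 0.156 to 0.172 CPM, the count scaled to the size of its library. CDK8 RNA stood at 87.1% and 91.1% of control in CDK8KO-C1 and CDK8KO-C2 and at 74.3% and 76.7% in DKO-C1 and DKO-C2. CDK19 RNA stood at 69.3% and 93.0% of control in CDK19KO-C1 and CDK19KO-C2, but at 122% and 141% in DKO-C1 and DKO-C2. As the edited sites are unknown, RNA levels do not check these knockouts. All levels here are relative to the other genes of the same library (TMM scaling). Scaling to the ERCC spike-in, which the labels name for the control and DKO libraries but not for the single knockouts, moved the median gene by -1.22 (log2) in CDK8KO, -1.65 in CDK19KO and -0.90 in DKO against control, by -0.37 for JQ1 in control and by -0.27 for JQ1 in DKO-C1. Among markers of the labelled cells, all 8 simple epithelial genes exceeded 1 CPM, and their sum was 5220 to 7890 CPM in the untreated knockout libraries against 4310 to 4860 CPM in control. KRT8 was the largest part of that sum, averaging 2224 CPM in control and 2834 CPM (CDK19KO-C1) to 4095 CPM (DKO-C2) in untreated knockouts. Not every gene moved with the sum: CLDN7 averaged 108 CPM in control and 48.6 CPM (DKO-C2) to 127 CPM (CDK19KO-C1) in untreated knockouts. None of 6 leukocyte or 4 endothelial markers reached 1 CPM. Hepatocyte markers, some of which HNF4A activates in liver, had 1 of 6 genes over 1 CPM, SERPINA1. SERPINA1 averaged 23.9 CPM in DKO-C1 and 19.8 CPM in DKO-C2 against 1.57 CPM in control. The single knockouts were split by subline, with SERPINA1 at 10.97 CPM in CDK19KO-C2 and 4.40 CPM in CDK8KO-C1. It averaged 0.83 CPM in CDK19KO-C1 and 1.40 CPM in CDK8KO-C2. Hepatocyte markers summed to 0.568 to 25.5 CPM over all libraries. Fibroblast markers had 2 of 7 genes over 1 CPM, with LUM and PDGFRA at 0 in every library and sums of 15.3 to 31.5 CPM in the untreated knockouts against 13.8 to 15.4 CPM in control. Gastric and foregut markers had 1 of 8 over 1 CPM, with TFF1 at 0 and sums of 1.17 to 3.05 CPM. The part of these markers in the results was not tested. Fewer cells of a type and less RNA per cell cannot be told apart in such bulk libraries.

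Divided by exon length, the 9 genes spanned a wide range of levels. SOX9 was highest at 34.8 CPM per kilobase over all libraries, followed by KLF5 at 21.5 and CDX2 at 4.30. EPHB2 followed at 3.17 CPM per kilobase, GATA6 at 1.97 and HNF4A at 0.898. CDH17 (0.0328 CPM per kilobase), VIL1 (0.00569) and CDX1 (0.00119) were at or near the counting limit. Over the 9 groups, the highest group mean was 20.7 times the lowest for HNF4A, against 2.53 times for EPHB2, 2.23 for SOX9, 2.06 for GATA6, 1.70 for KLF5 and 1.56 for CDX2.

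CDX1, the homeobox factor most closely related to CDX2 (chr5:150166795-150184558, plus strand), had 1 count in 1 library, DKO-C2 replicate b, and 0 in every other. VIL1, which encodes villin, the actin bundler of microvilli (chr2:218419092-218453295, plus strand), had 19 counts in 11 of 26 libraries. Its counts were 2, 5 and 1 in DKO-C1 and 1, 0 and 1 in DKO-C2, against 0, 0 and 0 in control. The highest was 5 counts in DKO-C1 replicate 2. USP37, a gene on the opposite strand at 26.6 to 41.8 CPM by group, covers 44.0% of the exon bases of VIL1. Whether counting used strand is not given in the sources used here, so VIL1 counts may lack reads of the shared bases or hold USP37 reads. CDH17, which encodes liver-intestine cadherin (chr8:94127171-94217303, minus strand), had 61 counts in 23 libraries and at most 5 in any. Its counts were 3 and 3 in DKO-C1+JQ1 and 2, 1 and 2 in DKO-C1. The control+JQ1 libraries had 4, 5 and 0 counts and the control libraries 4, 2 and 1. VIL1 in DKO-C1 lay above control, and CDH17 in DKO-C1+JQ1 above DKO-C1, without overlap but by a few counts, and neither gene entered the test. At this depth no difference among groups could be told for the 3 genes.

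**Figure D1:**
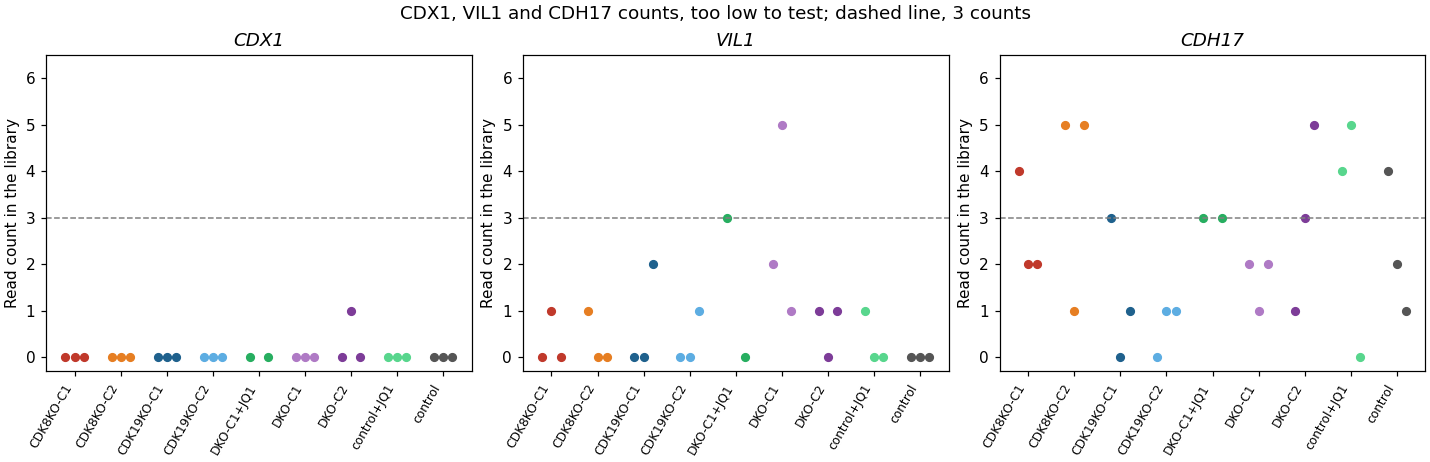
Read counts of CDX1, VIL1 and CDH17 in each of the 26 libraries (points), by group, on a linear axis in counts, with 3 counts as a dashed line. No library exceeds 5 counts for any of the 3 genes.

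**Figure D2:**
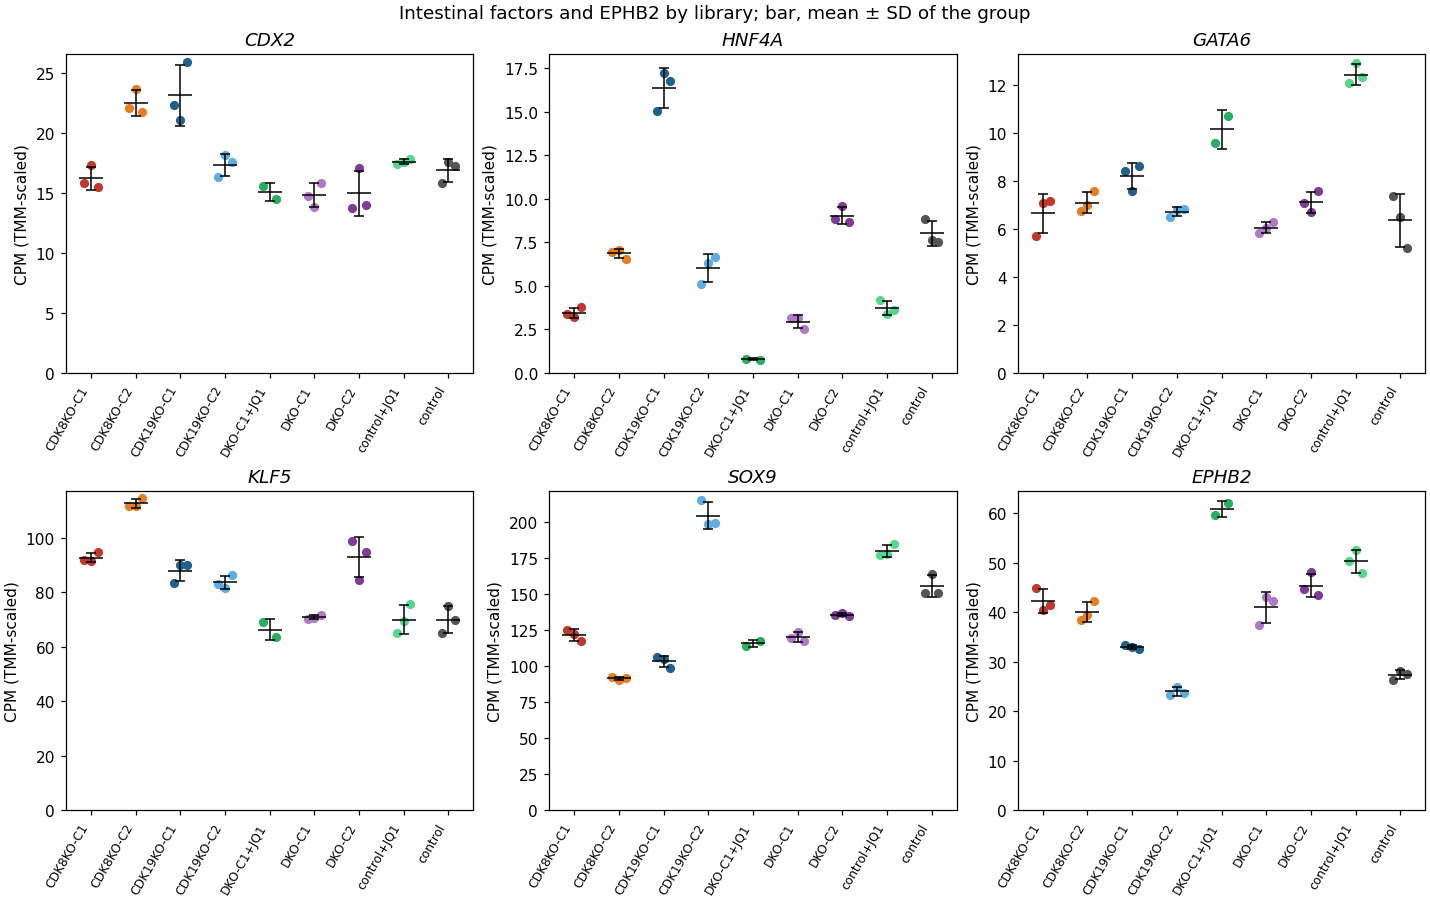
CPM of CDX2, HNF4A, GATA6, KLF5, SOX9 and EPHB2 in each library (points), by group, with the group mean (bar) and SD, each panel with its own axis. HNF4A runs from 0.790 CPM in DKO-C1+JQ1 to 16.3 CPM in CDK19KO-C1, while CDX2 stays between 14.8 and 23.1 CPM, relative to the other genes of each library; scaled to the ERCC spike-in, most rises in the knockouts turn into falls.

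CDX2 (chr13:27962137-27971139, minus strand), the homeobox factor that holds intestinal identity, varied least of the 6 tested genes. It stood at 15.9, 17.3 and 15.5 CPM in CDK8KO-C1 and 22.1, 23.7 and 21.7 CPM in CDK8KO-C2. In CDK19KO-C1 it was 22.4, 21.1 and 25.9 CPM and in CDK19KO-C2 16.4, 18.1 and 17.6 CPM. The DKO-C1 libraries held 14.8, 13.8 and 15.8 CPM, the DKO-C2 libraries 13.8, 17.1 and 14.0 CPM, and control 15.8, 17.6 and 17.2 CPM. All libraries of CDK8KO-C2 and CDK19KO-C1 lay above all control libraries, and the other knockout sublines overlapped control. Overlap describes these libraries alone, as the share of all tested genes without overlap was not counted, here or below. The test called the rise in CDK8KO-C2 (log2 fold change 0.42 ± 0.0817, adjusted p = 0.000112; -0.83 with ERCC factors). It also called the rise in CDK19KO-C1 (0.46 ± 0.0818, adjusted p = 1.88e-05; -1.32 with ERCC factors). These are edgeR quasi-likelihood tests with Benjamini-Hochberg adjustment over 17198 genes, and errors of fold changes are SE throughout. In the order of group means, CDK19KO-C1 and CDK8KO-C2 did not differ beyond their spread (adjusted p = 0.724), and both stood apart from the next, control+JQ1 (adjusted p = 0.000325 for CDK8KO-C2, where 60.1% of all tested genes were called). The remaining neighbours, from 17.6 CPM in control+JQ1 to 14.8 CPM in DKO-C1, overlapped and did not pass the test. Here and for the genes below, neighbours were set by ranking the same values that were then tested. With ERCC factors CDX2 was called lower than control in all 6 knockout sublines, including those not called here, at -1.25 in CDK8KO-C1, -1.2 in DKO-C1 and -0.96 in DKO-C2.

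HNF4A (chr20:44355700-44434596, plus strand), a nuclear receptor that drives enterocyte and hepatocyte genes, had the widest spread between groups. In CDK8KO-C1 it stood at 3.40, 3.21 and 3.78 CPM and in CDK8KO-C2 at 6.95, 7.07 and 6.55 CPM. CDK19KO-C1 held 15.1, 17.2 and 16.8 CPM and CDK19KO-C2 5.11, 6.29 and 6.64 CPM. DKO-C1 held 3.18, 3.13 and 2.53 CPM and DKO-C2 8.85, 9.58 and 8.67 CPM, against 8.86, 7.62 and 7.54 CPM in control. CDK19KO-C1 lay above every other group without overlap. Both CDK8KO sublines, CDK19KO-C2 and DKO-C1 lay below control, and DKO-C2 overlapped it. Against control, HNF4A fell in DKO-C1 (log2 fold change -1.44 ± 0.126, adjusted p = 1.94e-12) and in CDK8KO-C1 (-1.21 ± 0.123, adjusted p = 4.67e-10). In CDK19KO-C2 it fell too (-0.42 ± 0.111, adjusted p = 0.00244). It rose in CDK19KO-C1 (1.03 ± 0.0945, adjusted p = 2.47e-11; -0.74 with ERCC factors). The values for CDK8KO-C2 (-0.22 ± 0.108, adjusted p = 0.108) and DKO-C2 (0.17 ± 0.103, adjusted p = 0.150) did not pass the test. With ERCC factors HNF4A was called lower in both, at -1.48 in CDK8KO-C2 (adjusted p = 4.47e-15) and -0.61 in DKO-C2 (adjusted p = 0.00106). The order of group means held 3 called steps: from CDK19KO-C1 down to DKO-C2 (adjusted p = 2.7e-10), from CDK19KO-C2 to control+JQ1 (2.01e-05) and from DKO-C1 to DKO-C1+JQ1 (1.81e-08). Between these pairs 67.2%, 59.3% and 50.3% of all tested genes were called. The steps among DKO-C2, control, CDK8KO-C2 and CDK19KO-C2 did not pass the test (adjusted p = 0.150, 0.108 and 0.195), nor did those among control+JQ1, CDK8KO-C1 and DKO-C1 (adjusted p = 0.555 and 0.204).

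GATA6 (chr18:22169443-22202528, plus strand), the zinc-finger factor of the colonic and intestinal epithelium, differed little among the knockouts. It stood at 5.70, 7.09 and 7.16 CPM in CDK8KO-C1, 6.73, 7.01 and 7.57 CPM in CDK8KO-C2 and 8.41, 7.58 and 8.63 CPM in CDK19KO-C1. CDK19KO-C2 had 6.52, 6.79 and 6.86 CPM, DKO-C1 5.82, 6.05 and 6.29 CPM and DKO-C2 7.09, 6.70 and 7.58 CPM, against 7.40, 6.52 and 5.19 CPM in control. CDK19KO-C1 was the only subline without overlap with control. Its rise was called (0.36 ± 0.111, adjusted p = 0.00679; -1.40 with ERCC factors), and the call was lost without control replicate 3 (0.0952), the number being the adjusted p. GATA6 in DKO-C2 (0.16 ± 0.113, adjusted p = 0.224) became a call without control replicate 1 (0.0467). Control itself spread from 5.19 to 7.40 CPM. With ERCC factors GATA6 was called lower than control in all 6 knockout sublines, at -1.09 in DKO-C1 (adjusted p = 1.56e-08). Genes on the opposite strand, GATA6-AS1 and AC091588.3, cover 14.2% of the exon bases of GATA6 and reached at most 0.381 and 0.172 CPM in any library. In the order of means, the steps from control+JQ1 to DKO-C1+JQ1 (adjusted p = 0.0243) and on to CDK19KO-C1 (0.0161) were called, where 46.7% and 69.9% of all tested genes were called. The neighbours from CDK19KO-C1 down to DKO-C1 did not pass the test, with adjusted p from 0.0962 to 0.984.

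KLF5 (chr13:73054976-73077542, plus strand), a zinc-finger factor of proliferating crypt cells, was higher in 5 of the 6 untreated knockout sublines. It stood at 92.0, 91.6 and 94.8 CPM in CDK8KO-C1, 112, 112 and 115 CPM in CDK8KO-C2 and 83.5, 90.1 and 90.2 CPM in CDK19KO-C1. CDK19KO-C2 had 83.0, 81.6 and 86.4 CPM, DKO-C1 70.1, 70.8 and 71.7 CPM and DKO-C2 98.9, 84.7 and 94.9 CPM, against 65.0, 74.9 and 69.9 CPM in control. All but DKO-C1 lay above control without overlap. The log2 fold changes were 0.69 ± 0.0579, adjusted p = 5.12e-12 in CDK8KO-C2, the largest, and 0.26 ± 0.0587, adjusted p = 0.00046 in CDK19KO-C2, the smallest of the 5 calls. CDK8KO-C1 (0.41 ± 0.0584), DKO-C2 (0.41 ± 0.0583) and CDK19KO-C1 (0.33 ± 0.0586) lay between them. With ERCC factors the values became -0.56 in CDK8KO-C2 and -1.28 in CDK19KO-C2, and the other 3 also turned negative. DKO-C1 gave 0.02 ± 0.0592, adjusted p = 0.813. CDK8KO-C2 stood apart from the next group in the order, DKO-C2 (adjusted p = 6.66e-05, with 55.4% of all tested genes called). DKO-C2, CDK8KO-C1, CDK19KO-C1 and CDK19KO-C2 followed without a called step. A called step (adjusted p = 0.000660, with 55.7% of all tested genes called) parted them from DKO-C1, control+JQ1, control and DKO-C1+JQ1, which did not differ from their neighbours.

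SOX9 (chr17:72121020-72126420, plus strand), an HMG-box factor of crypt stem and progenitor cells, moved in opposite directions in the CDK19KO sublines. It stood at 125, 122 and 117 CPM in CDK8KO-C1 and 92.5, 90.4 and 91.8 CPM in CDK8KO-C2. CDK19KO-C1 held 106, 105 and 98.6 CPM and CDK19KO-C2 215, 198 and 199 CPM. DKO-C1 had 119, 124 and 117 CPM and DKO-C2 135, 137 and 134 CPM, against 151, 164 and 151 CPM in control. CDK19KO-C2 lay above all other groups and each of the other untreated sublines below control, without overlap. SOX9 fell most in CDK8KO-C2 (-0.76 ± 0.0471, adjusted p = 1.07e-15) and in CDK19KO-C1 (-0.59 ± 0.0468, adjusted p = 6.02e-13). In CDK8KO-C1 (-0.35 ± 0.0464) and DKO-C1 (-0.37 ± 0.0463) it fell by less. It fell least in DKO-C2 (-0.19 ± 0.0461, adjusted p = 0.000424), and it rose in CDK19KO-C2 (0.40 ± 0.0455, adjusted p = 5.1e-09; -1.15 with ERCC factors). Of the 8 steps between neighbours in the order of group means, 6 were called, in pairs where 44.7% to 69.9% of all tested genes were called. The neighbours CDK8KO-C1 and DKO-C1 (adjusted p = 0.797) and DKO-C1 and DKO-C1+JQ1 (adjusted p = 0.419) did not differ beyond their spread.

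EPHB2 (chr1:22710839-22921500, plus strand), an ephrin receptor that positions cells along the crypt and is a target of Wnt signalling, was lowest in CDK19KO-C2 and next lowest in control. It stood at 45.0, 40.5 and 41.4 CPM in CDK8KO-C1, 38.4, 39.5 and 42.3 CPM in CDK8KO-C2 and 33.4, 33.0 and 32.5 CPM in CDK19KO-C1. CDK19KO-C2 had 23.4, 24.9 and 23.7 CPM, DKO-C1 37.4, 43.1 and 42.3 CPM and DKO-C2 44.7, 48.0 and 43.4 CPM, against 26.4, 28.2 and 27.5 CPM in control. No knockout subline overlapped control. EPHB2 rose most in DKO-C2 (0.73 ± 0.0625, adjusted p = 8.89e-13; -0.06 with ERCC factors) and CDK8KO-C1 (0.63 ± 0.0631, adjusted p = 3.05e-10; -0.56). DKO-C1 (0.58 ± 0.0630; -0.43) and CDK8KO-C2 (0.55 ± 0.0632; -0.70) were close behind. The rise was smaller in CDK19KO-C1 (0.27 ± 0.0647, adjusted p = 0.000798; -1.49). In CDK19KO-C2 it fell (-0.19 ± 0.0671, adjusted p = 0.0216), a call lost without CDK19KO-C2 replicate 1 (0.0783), CDK19KO-C2 replicate 3 (0.0715), control replicate 2 (0.0784) and control replicate 3 (0.0539), adjusted p in parentheses. In the order of means, the steps from DKO-C1+JQ1 to control+JQ1 (adjusted p = 0.000520) and from control+JQ1 to DKO-C2 (0.0261, with overlapping libraries) were called, where 46.7% and 67.4% of all tested genes were called. The steps among DKO-C2, CDK8KO-C1, DKO-C1 and CDK8KO-C2 did not pass the test (adjusted p = 0.164, 0.564 and 0.677), and those from CDK8KO-C2 down to CDK19KO-C1, control and CDK19KO-C2 were called. Between these last pairs 44.7%, 46.1% and 42.4% of all tested genes were called.

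**Figure D3:**
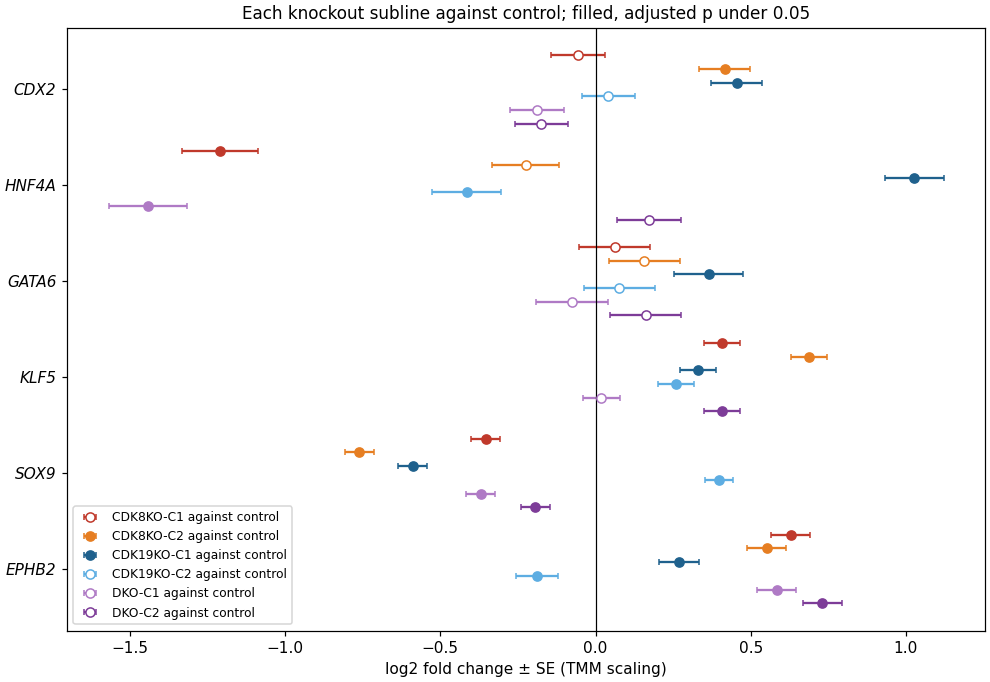
Log2 fold change against control (± SE) of the 6 tested genes in each untreated knockout subline, with TMM scaling; filled points are called at an adjusted p under 0.05. EPHB2 is positive in 5 sublines, SOX9 is positive in CDK19KO-C2 and negative in the other 5, and HNF4A runs from -1.44 in DKO-C1 to 1.03 in CDK19KO-C1. With ERCC factors every positive call shown turns negative.

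The comparison of CDK8KO with control asks which intestinal genes differed when that kinase was targeted, with the sublines weighted equally. KLF5 (0.55 ± 0.0513, adjusted p = 5.53e-11), EPHB2 (0.59 ± 0.0556, adjusted p = 6.6e-11) and CDX2 (0.18 ± 0.0728, adjusted p = 0.0466) rose, and HNF4A (-0.72 ± 0.0985, adjusted p = 2.38e-07) and SOX9 (-0.56 ± 0.0397, adjusted p = 4.51e-14) fell. Under ERCC scaling the rises became -0.67, -0.63 and -1.04. Thus 3 of the 6 tested genes were called higher and 2 lower, where 40.5% of all tested genes were called (19.5% higher and 21% lower). GATA6 gave 0.11 ± 0.0987, adjusted p = 0.405. By subline, HNF4A was called lower in CDK8KO-C1 (-1.21) and not in CDK8KO-C2 (-0.22, adjusted p = 0.108). CDX2 was called higher in CDK8KO-C2 (0.42) and not in CDK8KO-C1 (-0.06, adjusted p = 0.641). KLF5, EPHB2, HNF4A and SOX9 did not overlap control in any of the 6 CDK8KO libraries, but how many of all tested genes did the same was not counted. The CDX2 call was the weakest: it was lost without any of CDK8KO-C1 replicate 1 (0.0531), CDK8KO-C1 replicate 2 (0.109), CDK8KO-C2 replicate 1 (0.0526), CDK8KO-C2 replicate 2 (0.0963), CDK19KO-C2 replicate 2 (0.0502), DKO-C1 replicate 1 (0.0502), control+JQ1 replicate 2 (0.0508), control replicate 1 (0.226), control replicate 2 (0.0533) and control replicate 3 (0.0775), adjusted p in parentheses.

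In CDK19KO, the sublines were called in opposite directions for HNF4A, SOX9 and EPHB2, and the mean over both lies between them. CDX2 (0.25 ± 0.0725, adjusted p = 0.00549), HNF4A (0.31 ± 0.0897, adjusted p = 0.00566) and KLF5 (0.29 ± 0.0513, adjusted p = 1.42e-05) were called higher and SOX9 (-0.10 ± 0.0398, adjusted p = 0.0485) lower, 4 of 6 genes where 43% of all tested genes were called (21% higher and 22% lower). With ERCC factors the 3 rises became -1.41, -1.34 and -1.36. KLF5 alone moved the same way in both sublines without overlap with control. The CDX2 call was lost without control replicate 1 (0.0551). GATA6 (0.22 ± 0.0978, adjusted p = 0.0667) became a call without CDK19KO-C1 replicate 2 (0.0484) and control replicate 1 (0.0133), and EPHB2 gave 0.04 ± 0.0571, adjusted p = 0.607. The SOX9 call was lost when any of 18 of the 26 libraries was left out: CDK8KO-C1 replicate 1 (0.0514), CDK8KO-C1 replicate 2 (0.0556), CDK8KO-C1 replicate 3 (0.0506), CDK8KO-C2 replicate 1 (0.0538), CDK8KO-C2 replicate 2 (0.0544), CDK8KO-C2 replicate 3 (0.0540), CDK19KO-C1 replicate 2 (0.0518), CDK19KO-C1 replicate 3 (0.114), CDK19KO-C2 replicate 2 (0.0996), CDK19KO-C2 replicate 3 (0.147), DKO-C2 replicate c (0.0525), DKO-C1+JQ1 replicate 1 (0.0869), DKO-C1+JQ1 replicate a (0.0862), DKO-C1 replicate 1 (0.0519), DKO-C1 replicate 2 (0.0502), DKO-C1 replicate 3 (0.0516), control+JQ1 replicate 2 (0.0523) and control replicate 2 (0.351).

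In DKO, EPHB2 (0.66 ± 0.0554, adjusted p = 5.25e-13) and KLF5 (0.21 ± 0.0513, adjusted p = 0.000447) were called higher, and HNF4A (-0.63 ± 0.0984, adjusted p = 6.69e-07), SOX9 (-0.28 ± 0.0396, adjusted p = 9.85e-08) and CDX2 (-0.18 ± 0.0744, adjusted p = 0.0333) lower. This made 5 of 6 genes, where 61.6% of all tested genes were called (29.5% higher and 32.1% lower). ERCC scaling turned the rises to -0.24 and -0.70. EPHB2 and SOX9 did not overlap control in either subline, whereas KLF5 was called in DKO-C2 and not in DKO-C1, and HNF4A in DKO-C1 and not in DKO-C2. GATA6 gave 0.04 ± 0.0991, adjusted p = 0.725. The CDX2 call was lost without DKO-C2 replicate a (0.0789), DKO-C2 replicate c (0.0758), DKO-C1 replicate 2 (0.0767), control replicate 2 (0.138) and control replicate 3 (0.105). In DKO-C1 alone CDX2 (-0.19 ± 0.0863, adjusted p = 0.0612) became a call without CDK19KO-C1 replicate 3 (0.0461), DKO-C2 replicate b (0.0384), DKO-C1 replicate 3 (0.0380) and control replicate 1 (0.0366), and in DKO-C2 alone (-0.17 ± 0.0863, adjusted p = 0.0809) without DKO-C2 replicate b (0.00689) and control replicate 1 (0.0479).

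Set directly against each other, CDK8KO and CDK19KO differed in 4 of the 6 genes, where 47.1% of all tested genes were called (23.6% higher and 23.4% lower). KLF5 (0.25 ± 0.0406, adjusted p = 2.6e-06) and EPHB2 (0.55 ± 0.0447, adjusted p = 6.89e-13) were higher in CDK8KO, and HNF4A (-1.02 ± 0.0813, adjusted p = 3.68e-13) and SOX9 (-0.46 ± 0.0332, adjusted p = 2.7e-14) lower. All CDK8KO libraries lay above all CDK19KO libraries for KLF5 and EPHB2, while HNF4A and SOX9 overlapped. HNF4A averaged 16.3 CPM in CDK19KO-C1, but 6.01 CPM in CDK19KO-C2, between CDK8KO-C1 (3.46 CPM) and CDK8KO-C2 (6.86 CPM). SOX9 averaged 204 CPM in CDK19KO-C2, but 103 CPM in CDK19KO-C1, between CDK8KO-C2 (91.5 CPM) and CDK8KO-C1 (121 CPM). The direction for both genes thus depends on which sublines are compared. With ERCC factors the SOX9 value was -0.03 (adjusted p = 0.812). CDX2 gave -0.07 ± 0.0582, adjusted p = 0.352 and GATA6 -0.11 ± 0.0787, adjusted p = 0.257, and ERCC factors turned these to 0.37 and 0.32.

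Counted per subline, the 6 genes stood as follows against control. In CDK8KO-C1 2 were called higher (KLF5 and EPHB2) and 2 lower (HNF4A and SOX9), where 39.2% of all tested genes were called (19.8% higher and 19.4% lower). In CDK8KO-C2 3 were higher (CDX2, KLF5 and EPHB2) and 1 lower (SOX9), where 34% of all tested genes were called (16.8% higher and 17.2% lower). CDK19KO-C1 had 5 higher, all but SOX9, which was lower, where 46.1% of all tested genes were called (22.1% higher and 24% lower). CDK19KO-C2 had 2 higher (KLF5 and SOX9) and 2 lower (HNF4A and EPHB2), where 42.4% of all tested genes were called (21.8% higher and 20.6% lower). DKO-C1 had 1 higher (EPHB2) and 2 lower (HNF4A and SOX9), where 55.9% of all tested genes were called (27% higher and 28.9% lower). DKO-C2 had 2 higher (KLF5 and EPHB2) and 1 lower (SOX9), where 58.9% of all tested genes were called (28.4% higher and 30.5% lower). Without control replicate 1, 5 genes were called in DKO-C2, against 3 with it. EPHB2 was called in every subline, higher in 5 and lower in CDK19KO-C2, and with ERCC factors the 5 rises turned negative, that in DKO-C2 without passing the test. SOX9 was called in every subline too, lower in 5 and higher in CDK19KO-C2, which ERCC factors turned negative.

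Sublines of 1 genotype were also tested against each other. In CDK8KO-C1 against CDK8KO-C2, HNF4A (-0.98 ± 0.127, adjusted p = 1.62e-07), CDX2 (-0.47 ± 0.0825, adjusted p = 3.57e-05) and KLF5 (-0.28 ± 0.0569, adjusted p = 0.000289) were lower and SOX9 (0.41 ± 0.0475, adjusted p = 1.98e-08) higher, 4 of 6 genes where 21.1% of all tested genes were called (11.5% higher and 9.63% lower). In CDK19KO-C1 against CDK19KO-C2, HNF4A (1.44 ± 0.0997, adjusted p = 7.99e-15), EPHB2 (0.46 ± 0.0660, adjusted p = 3.5e-07), CDX2 (0.41 ± 0.0817, adjusted p = 6.22e-05) and GATA6 (0.29 ± 0.110, adjusted p = 0.0293) were higher and SOX9 (-0.99 ± 0.0466, adjusted p = 1.29e-19) lower. These were 5 of 6 genes, where 48% of all tested genes were called (23.8% higher and 24.2% lower). The GATA6 call was lost without CDK19KO-C1 replicate 1 (0.0731), CDK19KO-C1 replicate 3 (0.105), CDK19KO-C2 replicate 1 (0.0837) and CDK19KO-C2 replicate 2 (0.0551). In DKO-C1 against DKO-C2, HNF4A (-1.61 ± 0.124, adjusted p = 1.9e-12), KLF5 (-0.39 ± 0.0582, adjusted p = 6.7e-06) and SOX9 (-0.18 ± 0.0465, adjusted p = 0.0108) were lower, 3 of 6 genes where 9.42% of all tested genes were called (3.67% higher and 5.75% lower). The SOX9 call was lost without DKO-C1 replicate 3 (0.0570), and the count of all genes called was 982 without DKO-C1 replicate 1, against 1620 with it. HNF4A and SOX9 were thus called between the sublines of all 3 genotypes. With ERCC factors CDX2 (-0.42, adjusted p = 0.123) and KLF5 (-0.22, adjusted p = 0.592) were no longer called between the CDK8KO sublines. Nor were EPHB2 (0.24, adjusted p = 0.259), CDX2 (0.18, adjusted p = 0.428) and GATA6 (0.06, adjusted p = 0.843) between the CDK19KO sublines, and SOX9 (-0.40, adjusted p = 0.0920) between the DKO sublines.

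The JQ1 comparisons ask how these genes changed with the inhibitor in control cells and in DKO-C1, the only DKO subline given it. HNF4A stood at 0.822 and 0.759 CPM in DKO-C1+JQ1 (15 and 14 counts), against 3.18, 3.13 and 2.53 CPM in DKO-C1. In control+JQ1 it was 4.18, 3.36 and 3.64 CPM, against 8.86, 7.62 and 7.54 CPM in control. The JQ1 libraries lay below the untreated ones in both backgrounds without overlap, and DKO-C1+JQ1 was the lowest of the 9 groups. HNF4A fell with JQ1 in DKO-C1 (-1.89 ± 0.237, adjusted p = 1.81e-08) and in control (-1.10 ± 0.122, adjusted p = 9.68e-10).

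GATA6 and EPHB2 rose with JQ1. GATA6 stood at 9.58 and 10.7 CPM in DKO-C1+JQ1, against 5.82, 6.05 and 6.29 CPM in DKO-C1, and at 12.1, 12.9 and 12.3 CPM in control+JQ1, against 7.40, 6.52 and 5.19 CPM in control. EPHB2 stood at 59.6 and 62.0 CPM in DKO-C1+JQ1, against 37.4, 43.1 and 42.3 CPM in DKO-C1, and at 50.4, 52.5 and 48.0 CPM in control+JQ1, against 26.4, 28.2 and 27.5 CPM in control. Neither gene's treated and untreated libraries overlapped. The GATA6 change was 0.75 ± 0.119, adjusted p = 1.67e-06 in DKO-C1 and 0.96 ± 0.104, adjusted p = 4.67e-10 in control. The EPHB2 change was 0.57 ± 0.0646, adjusted p = 1.98e-09 in DKO-C1 and 0.88 ± 0.0623, adjusted p = 1.2e-14 in control. With ERCC factors the DKO-C1 changes were 0.47 for GATA6 (adjusted p = 0.0549) and 0.30 for EPHB2 (adjusted p = 0.167), both no longer called.

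SOX9 stood at 114 and 117 CPM in DKO-C1+JQ1, against 119, 124 and 117 CPM in DKO-C1, and at 177, 178 and 185 CPM in control+JQ1, against 151, 164 and 151 CPM in control. It overlapped in DKO-C1 (-0.05 ± 0.0525, adjusted p = 0.419) and was called higher in control (0.21 ± 0.0457, adjusted p = 0.000147; -0.16 with ERCC factors). CDX2 was 15.6 and 14.5 CPM in DKO-C1+JQ1 and 17.4, 17.6 and 17.8 CPM in control+JQ1, overlapping the untreated libraries in both, with changes of 0.03 ± 0.0984, adjusted p = 0.850 in DKO-C1 and 0.06 ± 0.0851, adjusted p = 0.554 in control. KLF5 was 69.1 and 63.7 CPM in DKO-C1+JQ1 and 64.9, 69.4 and 75.7 CPM in control+JQ1. Its changes were -0.09 ± 0.0667, adjusted p = 0.250 in DKO-C1, where the treated libraries lay just below the untreated ones, and 0.00 ± 0.0596, adjusted p = 0.987 in control. In all, JQ1 left 2 of the 6 genes called higher and 1 lower in DKO-C1, where 50.3% of all tested genes were called (24.9% higher and 25.4% lower), and 3 higher and 1 lower in control, where 56% were (27% higher and 29.1% lower).

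The difference of both JQ1 responses was tested as an interaction. SOX9 (-0.27 ± 0.0697, adjusted p = 0.0107) and EPHB2 (-0.31 ± 0.0901, adjusted p = 0.0243) responded less in DKO-C1 than in control, 2 of 6 genes where 8.59% of all tested genes were called (3.9% higher and 4.7% lower). The EPHB2 call was lost without DKO-C1+JQ1 replicate 1 (0.106), DKO-C1 replicate 2 (0.0828), DKO-C1 replicate 3 (0.0647), control+JQ1 replicate 2 (0.0695) and control replicate 1 (0.0676), and the SOX9 call without DKO-C1+JQ1 replicate 1 (0.0652). The count of all genes called was 921 without DKO-C1+JQ1 replicate 1, against 1478 with it. With ERCC factors the interaction was -0.16 for SOX9 and -0.22 for EPHB2, and neither was called. The HNF4A value was -0.79 ± 0.284, adjusted p = 0.0813, so the larger fall in DKO-C1 did not pass the test as a difference, and GATA6 gave -0.22 ± 0.158, adjusted p = 0.486. Between the treated groups, HNF4A (-2.23 ± 0.228, adjusted p = 1.6e-10), SOX9 (-0.64 ± 0.0525, adjusted p = 5.79e-13) and GATA6 (-0.29 ± 0.108, adjusted p = 0.0243) were lower and EPHB2 (0.27 ± 0.0641, adjusted p = 0.00052) higher in DKO-C1+JQ1 than in control+JQ1, 4 of 6 genes where 46.7% of all tested genes were called (24.3% higher and 22.4% lower). Against untreated control, DKO-C1+JQ1 was called for HNF4A (-3.33 ± 0.195, adjusted p = 1.76e-17), EPHB2 (1.15 ± 0.0670, adjusted p = 1.33e-17), GATA6 (0.67 ± 0.118, adjusted p = 5.09e-06) and SOX9 (-0.42 ± 0.0524, adjusted p = 6.1e-09), where 66.1% of all tested genes were (31.6% higher and 34.5% lower).

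**Figure D4:**
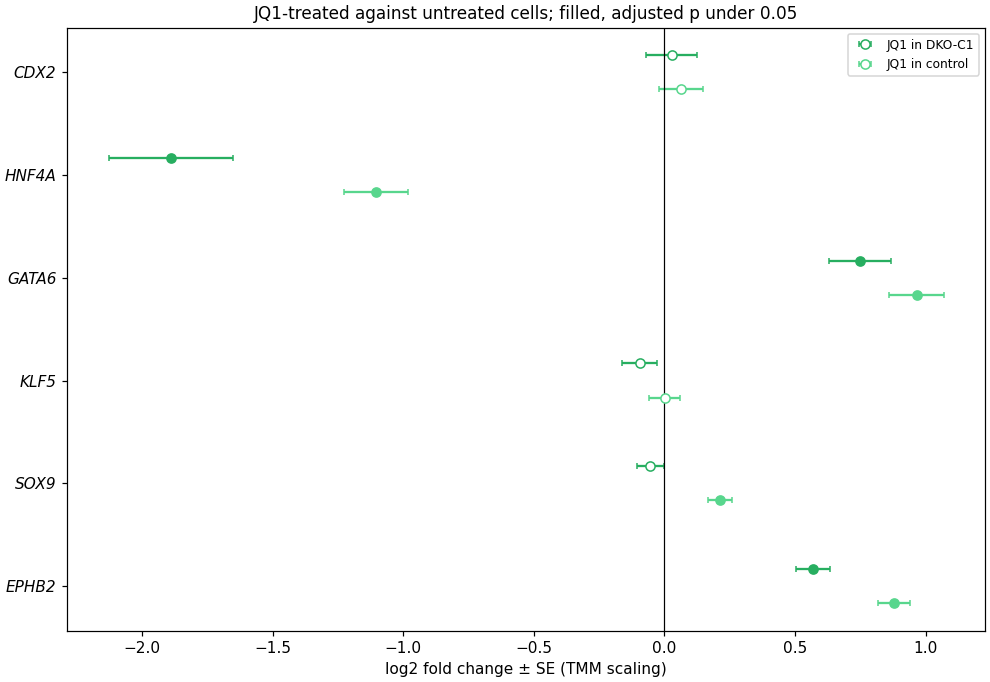
Response to JQ1 (log2 fold change ± SE) of the 6 tested genes in DKO-C1 and in control, with TMM scaling. HNF4A falls and GATA6 and EPHB2 rise in both backgrounds; SOX9 is called in control and not in DKO-C1, and ERCC factors turn its value in control to -0.16.

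Other transcription factors of the intestinal epithelium give the setting of these changes; 13 of 19 on the list were tested, and GATA4 had no count in any library. In CDK8KO 1 was called higher (ELF3, 0.40 ± 0.0582, adjusted p = 5.89e-07) and 6 lower, among them KLF4, a factor of differentiating cells (-1.22 ± 0.0847, adjusted p = 2.21e-14), and HES1, a Notch target (-0.64 ± 0.0676, adjusted p = 1.04e-09), where 19.5% of all tested genes were called higher and 21% lower. ELF3, an epithelial ETS factor, averaged 73.8 CPM in CDK8KO-C2 but 46.7 CPM in CDK8KO-C1, against 44.4 CPM in control, and no factor of the list was called higher in CDK8KO-C1. The list's median was -0.05, beside -0.02 over all tested genes. In CDK19KO 6 were higher, among them the pioneer factor FOXA1 (1.31 ± 0.151, adjusted p = 6.56e-09) and KLF4 (1.16 ± 0.0718, adjusted p = 8.74e-16), and 2 lower, the ETS factor EHF (-1.42 ± 0.0587, adjusted p = 5.03e-21) and HES1, beside 21% and 22% of all tested genes. The median was 0.19 beside -0.02. Counted per subline, the list had 8 higher and 2 lower in CDK19KO-C1 (median 0.39) but 4 higher and 6 lower in CDK19KO-C2 (median -0.03). In DKO 2 were higher and 5 lower, beside 29.5% and 32.1% of all tested genes, with EHF at 12.5 ± 3.10 CPM in DKO against 59.5 ± 3.34 CPM in control (SD; -2.28 ± 0.0617, adjusted p = 2.3e-28) and TCF7L2, the Wnt effector, at -1.04 ± 0.0425, adjusted p = 1.86e-22. The count of higher genes was 3 without control replicate 1 and 1 without control replicate 3, and the median was -0.06 beside -0.02. With ERCC factors no rise on this list remained in these 3 comparisons, and 12 factors in CDK8KO, 11 in CDK19KO and 11 in DKO were called lower.

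With JQ1, 8 of the 13 factors were called lower and 1 higher in DKO-C1, and 10 lower and 2 higher in control. Of all tested genes, 25.4% were called lower and 24.9% higher in DKO-C1, and 29.1% lower and 27% higher in control. The list's medians were -0.54 in DKO-C1, beside -0.01 over all tested genes, and -0.75 in control, beside -0.02. HNF4G, the paralog of HNF4A, was 0.572 ± 0.0344 CPM in DKO-C1+JQ1 against 3.98 ± 0.653 CPM in DKO-C1 (SD), a log2 fold change of -2.78 ± 0.271, adjusted p = 5.83e-11. In control+JQ1, near the counting limit, it was 0.209 ± 0.143 CPM against 4.03 ± 0.190 CPM in control, a change of -4.23 ± 0.297, adjusted p = 9.02e-15. Both HNF4 genes thus fell with JQ1 in both backgrounds. EHF fell as well (-2.91 ± 0.146, adjusted p = 1e-18 in DKO-C1 and -2.07 ± 0.0751, adjusted p = 4.67e-23 in control), and the responses differed for EHF (-0.84 ± 0.185, adjusted p = 0.00199), although with ERCC factors no difference of responses on the list was called. FOXA1 rose (0.92 ± 0.173, adjusted p = 2.75e-05 in DKO-C1 and 0.80 ± 0.182, adjusted p = 0.000269 in control). With ERCC factors 8 factors in DKO-C1 and 10 in control were called lower, and no factor was called higher in control.

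Crypt base and Wnt-dependent receptor genes, the group to which EPHB2 belongs by function, had 10 of 14 tested, and OLFM4 had no count. LGR5, the stem cell receptor, was too low to test, with 42 counts over 21 libraries. In CDK8KO 8 of 10 were called higher (median 0.34 beside -0.02 over all tested genes, of which 19.5% were called higher). In CDK19KO 7 were higher and 1, the surface protein PROM1, lower (median 0.26 beside -0.02, with 21% and 22% of all tested genes). In DKO 8 were higher and 2 lower (median 0.50 beside -0.02, with 29.5% and 32.1% of all tested genes). ERCC factors left none of these rises called and called 7, 9 and 5 genes lower instead. EPHB3, a receptor related to EPHB2, rose in CDK8KO (1.02 ± 0.0947, adjusted p = 4.86e-11), CDK19KO (0.61 ± 0.0990, adjusted p = 4.73e-06) and DKO (0.91 ± 0.0955, adjusted p = 1.56e-10) before that scaling. RNF43, a ubiquitin ligase that removes Wnt receptors, was 21.0 ± 1.99 CPM in DKO against 82.1 ± 2.38 CPM in control (SD; -1.97 ± 0.0462, adjusted p = 1.84e-30). With JQ1 3 were higher and 4 lower in each background, where of all tested genes 24.9% were higher and 25.4% lower in DKO-C1, and 27% higher and 29.1% lower in control. ERCC factors gave 2 higher and 5 lower in DKO-C1, and 1 higher and 5 lower in control. EPHB3 rose in DKO-C1 (1.37 ± 0.0897, adjusted p = 1.61e-15) and control (1.85 ± 0.0979, adjusted p = 3.2e-18), less so in DKO-C1 (-0.48 ± 0.137, adjusted p = 0.0215 for the difference), as EPHB2 did. The Wnt feedback gene AXIN2 differed most in its response (-0.97 ± 0.114, adjusted p = 7.84e-08). Of this list 3 genes had a lower response in DKO-C1, where 4.7% of all tested genes did; the count was 1 without DKO-C1+JQ1 replicate 1 and 1 with ERCC factors.

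Enterocyte and brush border genes, among which VIL1 and CDH17 would stand, had 12 of 27 tested, and FABP2, SI and APOB had no count. In CDK8KO 1 was called higher and 5 lower (median -0.27 beside -0.02). In CDK19KO 3 were higher and 4 lower (median -0.17 beside -0.02), and in DKO 2 were higher and 7 lower (median -0.31 beside -0.02). The shares of all tested genes called higher and lower were 19.5% and 21% in CDK8KO, 21% and 22% in CDK19KO, and 29.5% and 32.1% in DKO. With ERCC factors none of the 12 genes was called higher, and 12 were called lower in CDK8KO, 11 in CDK19KO and 8 in DKO. The peptidase DPP4 fell in all 3, at -1.51 ± 0.129, adjusted p = 6.01e-12 in CDK8KO, -1.49 ± 0.128, adjusted p = 5.4e-12 in CDK19KO and -1.06 ± 0.121, adjusted p = 9.66e-10 in DKO. USH1C, a scaffold that links microvilli, rose in all 3 (0.62 ± 0.0918, adjusted p = 9.57e-07 in CDK8KO and 0.75 ± 0.0905, adjusted p = 4.1e-09 in DKO), a rise that ERCC factors did not leave. With JQ1 5 were higher and 5 lower in DKO-C1, and 4 higher and 5 lower in control, beside 24.9% higher and 25.4% lower in DKO-C1 and 27% higher and 29.1% lower in control over all tested genes. ERCC factors gave 2 higher and 5 lower in DKO-C1, and 2 higher and 6 lower in control. The lower count in DKO-C1 was 3 without DKO-C1+JQ1 replicate 1. ESPN, an actin bundler, rose (0.93 ± 0.0722, adjusted p = 1.87e-13 in DKO-C1 and 0.99 ± 0.0613, adjusted p = 2.51e-16 in control), and DPP4 fell (-0.80 ± 0.205, adjusted p = 0.00132 and -1.34 ± 0.151, adjusted p = 1.36e-09).

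Secretory lineage genes had 3 of 17 tested, and TFF3, DEFA5 and CLCA1 had no count. POU2F3, the tuft cell factor, was 1.71 ± 0.600 CPM in DKO against 0.233 ± 0.0826 CPM in control (SD; 2.78 ± 0.334, adjusted p = 3.63e-09). It was called lower with JQ1 in DKO-C1, where the treated libraries, at 0.109 ± 0.0763 CPM against 1.20 ± 0.338 CPM in DKO-C1 (SD), were below the counting limit (adjusted p = 1.56e-06). FCGBP, a goblet cell protein, fell in CDK8KO (-0.99 ± 0.174, adjusted p = 1.8e-05), CDK19KO (-1.18 ± 0.180, adjusted p = 1.61e-06) and DKO (-0.74 ± 0.168, adjusted p = 0.000226). GFI1, a factor of secretory precursors, was called higher in DKO (0.48 ± 0.126, adjusted p = 0.00119) and CDK19KO (0.36 ± 0.128, adjusted p = 0.0208) before ERCC scaling. In CDK19KO, where GFI1 was the 1 gene of the list called higher, none was called without control replicate 1 or control replicate 2, and 2 were without either DKO-C1+JQ1 library. Beside these calls, the shares of all tested genes called higher and lower were 19.5% and 21% in CDK8KO and 21% and 22% in CDK19KO. They were 29.5% and 32.1% in DKO, and 24.9% and 25.4% with JQ1 in DKO-C1.

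Across the 9 group means, the genes most like each member were found by Pearson's r of log2 CPM. The 10404 candidates were tested protein-coding genes averaging at least 5 CPM, without clone-based names and the Y chromosome. Only the highest of these values are given, as a description over groups that share control cells and library scaling. For CDX2 these were TOB1 (r = 0.966) and BEND7 (0.955), and for HNF4A ZNF574 (0.934) and C11orf49 (0.929). GATA6 was most like RETREG3 (0.978) and ARIH1 (0.970), and KLF5 like QRICH1 (0.937) and SIVA1 (0.915). SOX9 was most like TMEM158 (0.918) and SLK (0.911), and EPHB2 like RHBDD2 (0.970) and MMP17 (0.955). None of these is itself one of the 9 genes. Among the members the values farthest from 0 were -0.64 for HNF4A with EPHB2, 0.59 for GATA6 with EPHB2 and 0.59 for CDX2 with HNF4A.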

How the data were processed

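Total RNA of 26 libraries was sequenced as paired reads of 100 bases, per the labels. The deposited table gives unnormalised read counts of genes and ERCC transcripts. Per the submitters' processing notes, the authors used STAR 2.5.2, featureCounts of Subread 1.6.3 and build hg38; neither the strand setting nor the annotation release was found in the sources used here. Of the columns, 22 were matched to 1 sample and 4 to a group only. Replicates are not stated to be separate cultures, so p-values measure only the spread between these libraries.

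All 9 groups were fitted together in edgeR 4.0.16 (R 4.3.3, limma 3.58.1) with a quasi-likelihood test, TMM factors (0.956 to 1.02) and filterByExpr (minimum count 10, minimum total 15), which left 17198 genes. Calls are two-sided at a Benjamini-Hochberg adjusted p under 0.05. CPM use TMM library sizes, and floors of 3 counts cover counting error only. The 25 within-group pairs of libraries differed by more than counting noise (chi-square over its degrees of freedom, 1.38 to 11.9). The highest values were those of DKO-C2 replicate b with replicates a (11.9) and c (9.74), beside 2.14 for a with c. Gene positions are those of a GENCODE annotation of hg38, promoters are RefSeq's. The test was checked on simulated data.

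The 9 genes, the gene lists, the markers and the rule for named genes were chosen with earlier results of these data known. From each list, up to 2 called genes that rose most and 2 that fell most, with at least 1 CPM in a compared group, could be named. LGR5, genes with no count and the markers KRT8, CLDN7 and SERPINA1 were named in addition. Alternatives were median-ratio factors, ERCC factors, no filter, at least 1 CPM in 3 samples, DESeq2 1.42.0, only the groups compared, a replicate block and each library left out. Same-numbered libraries did not deviate together.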

Additional observations from a re-analysis of the deposited data

Results flagged for a closer look

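The responses to JQ1 differed between DKO-C1 and control in a test of the interaction for SOX9 (-0.27) and EPHB2 (-0.31), both log2.

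Sublines of the same genotype differed when tested against each other. CDK8KO-C1 minus CDK8KO-C2 gave log2 values of -0.47 for CDX2, -0.98 for HNF4A, -0.28 for KLF5 and 0.41 for SOX9. CDK19KO-C1 minus CDK19KO-C2 gave 0.41 for CDX2, 1.44 for HNF4A, 0.29 for GATA6, -0.99 for SOX9 and 0.46 for EPHB2. DKO-C1 minus DKO-C2 gave -1.61 for HNF4A, -0.39 for KLF5 and -0.18 for SOX9. Where the sublines of a genotype differ this way, a mean over them describes neither. No group had more than 3 libraries, so no search for single outlying libraries was made.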

How the results depend on the processing

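Scaling mattered most, because ERCC factors shift the median gene, and the cause of that shift was not tested. With ERCC factors these log2 values turned sign. For CDK8KO against control they were CDX2 -1.04, GATA6 -1.12, KLF5 -0.67 and EPHB2 -0.63. For CDK19KO against control they were CDX2 -1.41, HNF4A -1.34, GATA6 -1.43, KLF5 -1.36 and EPHB2 -1.61. For DKO against control they were GATA6 -0.86, KLF5 -0.70 and EPHB2 -0.24. For CDK8KO against CDK19KO they were CDX2 0.37 and GATA6 0.32. For JQ1 in control they were KLF5 -0.37 and SOX9 -0.16. For CDK8KO-C1 against control they were GATA6 -1.13, KLF5 -0.79 and EPHB2 -0.56. For CDK8KO-C2 against control they were CDX2 -0.83, GATA6 -1.10, KLF5 -0.56 and EPHB2 -0.70. For CDK19KO-C1 against control they were CDX2 -1.32, HNF4A -0.74, GATA6 -1.40, KLF5 -1.44 and EPHB2 -1.49. For CDK19KO-C2 against control they were CDX2 -1.50, GATA6 -1.46, KLF5 -1.28 and SOX9 -1.15. For DKO-C1 against control they were KLF5 -1.0 and EPHB2 -0.43. For DKO-C2 against control they were HNF4A -0.61, GATA6 -0.63, KLF5 -0.39 and EPHB2 -0.06. Falls that became calls with ERCC factors were CDX2 in CDK8KO-C1 (-1.25), DKO-C1 (-1.2) and DKO-C2 (-0.96), HNF4A in CDK8KO-C2 (-1.48) and GATA6 in DKO-C1 (-1.09).

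Counts of the 6 genes called also moved with ERCC factors, to 1 for JQ1 in DKO-C1, 0 for the difference of JQ1 responses, 6 for DKO-C1, 5 for DKO-C2, and 2 each for CDK8KO-C1 against CDK8KO-C2 and CDK19KO-C1 against CDK19KO-C2. Without a filter on low counts, 1 gene was called for the difference of JQ1 responses. Leaving out each library in turn gave 0 to 2 genes for that difference and 3 to 5 for DKO-C2. Counts of all genes called with ERCC factors were 16277 for CDK8KO, 16855 for CDK19KO, 12577 for CDK8KO against CDK19KO and 142 for the difference of JQ1 responses. For sublines against control they were 15805 in CDK8KO-C1, 16194 in CDK8KO-C2, 16821 in CDK19KO-C1, 16567 in CDK19KO-C2 and 14995 in DKO-C1. Between sublines they were 966 in CDK8KO, 5209 in CDK19KO and 966 in DKO. With only the groups compared, 693 genes were called for DKO-C1 against DKO-C2 (SOX9 adjusted p = 0.133), and CDX2 was called in DKO-C1 (adjusted p = 0.0417) but not in DKO (0.0638).

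Same-numbered libraries correlated at -0.0629 to 0.0747 over 63 pairs, and 8 of 21 libraries correlated best with their own number, so the numbers do not pair the samples. A replicate block changed 1 call, SOX9 in CDK19KO (-0.09, adjusted p = 0.0744), and a fit of the same libraries without the block, chosen after seeing the data, lost it too (adjusted p = 0.0676). DKO-C2 columns are numbered too, but their clone number matches no title, so they could not be tied to single samples and stayed out of that fit, as did the DKO-C1+JQ1 column matched to its group only. The same call was lost with median-ratio factors (adjusted p = 0.0768), DESeq2 (0.0650), no filter (0.256) and the 1 CPM filter (0.0673). DESeq2 also lost CDX2 in CDK8KO (0.0663) and DKO (0.0526), and no filter lost CDX2 in CDK8KO (0.0748) and DKO (0.0660), EPHB2 in CDK19KO-C2 (0.0842) and in the JQ1 difference (0.0626), and GATA6 between CDK19KO sublines (0.0689). Counts as low as those of CDX1, VIL1 and CDH17 allow no statement on change.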
